A study of Mus musculus with 4 samples.

Results

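The cells described here are natural killer (NK) cells among mouse spleen cells profiled by droplet-based single-cell RNA sequencing. They were selected on the RNA itself: a barcode that held 200 genes or more, with no more than 10% of its molecules mitochondrial, was taken as an NK cell when it held at least 2 molecules of Ncr1, Klrb1c and Klre1 together, none of the T cell genes Cd3d and Cd3g, none of the B cell genes Cd79a and Ms4a1, and fewer than 5 of the myeloid gene Lyz2. A molecule is counted through its unique molecular identifier (UMI). This rule found 309 NK cells among 20476 kept barcodes.

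Spleens came from mice aged 10 weeks, either wild-type C57BL/6 or TRIF-KO on that background, 4 h after an intravenous injection of 100 µl holding PBS or 9 µg of recombinant murine TNF. The question behind the design is how the absence of TRIF, an adaptor protein of Toll-like receptor signalling, bears on the response of the spleen to TNF. Each of the 4 groups is 1 library, and the sources used here do not give the number of mice behind a library. There is therefore no replicate, no test between groups and no p-value below: every interval is a 95% interval that covers counting error only, and differences between mice cannot be told apart from effects of genotype or injection. Values are given throughout in a fixed order: wild-type after PBS, wild-type after TNF, then TRIF-KO after PBS and TRIF-KO after TNF.

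NK cells are innate lymphocytes that kill infected or transformed cells without prior priming and secrete interferon gamma and chemokines. In the mouse spleen they mature from a CD27+ stage to a late stage marked by CD11b (Itgam) and KLRG1, which is driven by the transcription factors T-bet (Tbx21) and Zeb2 and leaves tissue through the sphingosine-1-phosphate receptor S1pr5. TNF binds TNF-R1 and TNF-R2, which activate NF-kB and induce its own inhibitors, whereas TRIF passes signals from Toll-like receptors TLR3 and TLR4 to NF-kB and to interferon genes.

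The 4 libraries gave 64, 56, 118 and 71 NK cells. Together these held 407869, 260332, 450078 and 539965 UMIs, with medians of 5550.5, 4051, 3536.5 and 5957 UMIs per cell. Over all barcodes, 6.26, 22.4, 10.8 and 11.6% exceeded the mitochondrial limit, which was highest in the wild-type TNF library. Of those left out, 0, 6, 9 and 7 would have met the NK gate. Any 2 libraries shared 3 to 15 barcodes, and no NK barcode was shared. Ticam1, the gene of TRIF, gave 6, 1, 6 and 3 UMIs in NK cells. Its RNA was present in both libraries labelled TRIF-KO, and since the sequenced tag need not lie in the deleted part, it does not check the labels.

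The name of the cells was checked on genes outside the gate. Of the 309 cells, 292 held Gzma (granzyme A), 300 held Nkg7 (a cytotoxic granule protein), 288 held Klrd1 (CD94) and 278 held Prf1 (perforin). Of 10 T cell genes outside the gate, Cd5, Cd6 and Cd8b1 were at 0 in all libraries, as were the macrophage genes Adgre1 and Fcgr1. The other 7 summed to 277, 209, 322 and 385 UMIs in 56, 45, 101 and 69 NK cells, of which Trbc1 gave 154, 119, 188 and 249 and Trbc2 94, 70, 101 and 83. Trac gave 2, 6, 5 and 7 UMIs and Cd3e 0, 0, 0 and 1, and with both also at 0 the gate kept 62, 50, 113 and 64 cells. The median gate sum was 16 UMIs. At the edge of the rule, the 5 barcodes with a sum of 2 included none with Gzma and 1 with Nkg7, and the 24 barcodes just outside it, with a sum of 1, held neither gene.

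A few gated barcodes carried RNA of other cells. B cell genes summed to 340, 590, 143 and 990 UMIs, of which 219, 334, 5 and 830 lay in 1 barcode each. Haemoglobin took 0.310, 0.276, 0.160 and 3.77% of NK UMIs, and in the TRIF-KO TNF library 10568 of 20346 haemoglobin UMIs lay in 1 barcode. Monocyte genes summed to 409, 167, 574 and 837 UMIs, 517 of the last from 1 barcode. Of these sums Ly6c2 gave 151, 57, 325 and 75. Late-stage NK cells express it too, so the sums are not RNA of other cells alone. Neutrophil genes gave 15, 23, 2 and 113. A stricter gate, chosen after seeing these values, also asked for 2 UMIs of Gzma and Nkg7, fewer than 10 of Cd74 and fewer than 50 of Hbb-bs and Hba-a1. It kept 62, 52, 118 and 67 cells, and some of its values are quoted below.

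NK cells were a smaller share of the spleen libraries after TNF than after PBS in both genotypes. They made up 2.56% of kept barcodes in the wild-type PBS library (interval 1.98 to 3.25), 1.07% after TNF (0.806 to 1.38), 2.09% in the TRIF-KO PBS library (1.73 to 2.49) and 1.01% after TNF (0.786 to 1.27). The TNF to PBS ratio was 0.417 in wild-type (0.286 to 0.606) and 0.482 in TRIF-KO libraries (0.354 to 0.653). Neither pair of intervals overlapped, whereas the genotypes lay close together: the TRIF-KO to wild-type ratio was 0.815 (0.596 to 1.12) after PBS and 0.943 (0.655 to 1.36) after TNF.

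Shares are relative to all other cells of a library, so the lymphocytes were set beside them. T cells, gated on Cd3d and Cd3g, had TNF to PBS ratios of 1.07 in wild-type (0.951 to 1.21) and 0.826 in TRIF-KO libraries (0.762 to 0.897). B cells, gated on Cd79a and Ms4a1, had ratios of 1.11 (1.04 to 1.18) and 0.846 (0.805 to 0.890). Per 100 gated T and B cells there were 3.94, 1.49, 2.85 and 1.63 NK cells, which is a ratio of 0.379 in wild-type (0.260 to 0.552) and 0.574 in TRIF-KO libraries (0.421 to 0.776). Thus NK cells were fewer relative to lymphocytes too. The rule genes themselves differed: Ncr1 measured 1074, 480, 933 and 452 CPM (counts scaled to a total of 1e+06 UMIs over the NK cells), and Klre1 1719, 914, 1715 and 937, while Klrb1c stayed between 959 and 1064. With Gzma, Klra4, Klra7, Klra8 and Klrd1 in place of the gate genes, 78, 66, 143 and 87 cells were found. Those genes were lower after TNF too, so this gate does not check whether lower RNA of the gate genes moved cells out of the gate, and that was not tested. Over the alternative gates tried, the ratio ranged from 0.384 to 0.475 in wild-type and from 0.454 to 0.528 in TRIF-KO libraries.

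**Figure D1:**
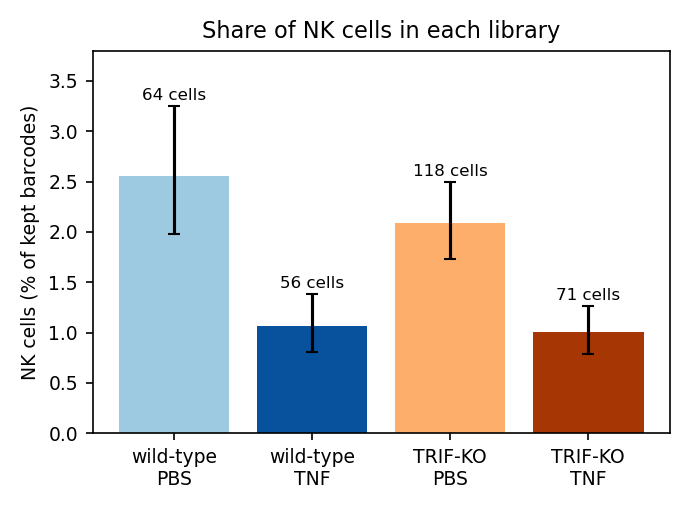
NK cells as a percentage of kept barcodes (vertical axis) in the 4 libraries (horizontal axis), with 95% exact binomial intervals that cover counting error only. Both PBS libraries sit above 2%, and both TNF libraries near 1%.

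For expression, UMIs were summed over the NK cells of a library and divided by their total to give CPM. Of 2620 genes with at least 100 UMIs in all and 50 CPM in 1 library, 2589 were counted, leaving out 28 with under 5% of their level in another cell gate and the 3 gate genes. TNF against PBS in wild-type NK cells gave 82 genes at least 2-fold higher (3.17% of those counted) and 340 at least 2-fold lower (13.1%), with a median log2 ratio of -0.17. In TRIF-KO cells 79 were higher (3.05%) and 166 lower (6.41%), with a median of -0.13. Both genotypes shared 31 higher genes, which is 37.8% of the wild-type and 39.2% of the TRIF-KO set, and 92 lower genes, which is 27.1% and 55.4%. The 2 TNF to PBS comparisons use separate libraries.

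The excess of lower genes depends in part on scaling. With scaling by the median of ratios, the median gene moved to 0.04 in wild-type and 0.00 in TRIF-KO cells, and the counts became 138 higher against 201 lower in wild-type and 98 against 118 in TRIF-KO cells. With genes of mitochondria, ribosomes, haemoglobin and immunoglobulin left out of the total, they were 110 against 236 and 106 against 109, of 2495 counted. The wild-type ratios of Spn, Itgb2, Klrc1 and Ifng given below were under 2-fold with median-of-ratios scaling. The percentages above are the background for every list below, and the lists were assembled with earlier results of these data known.

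**Figure D2:**
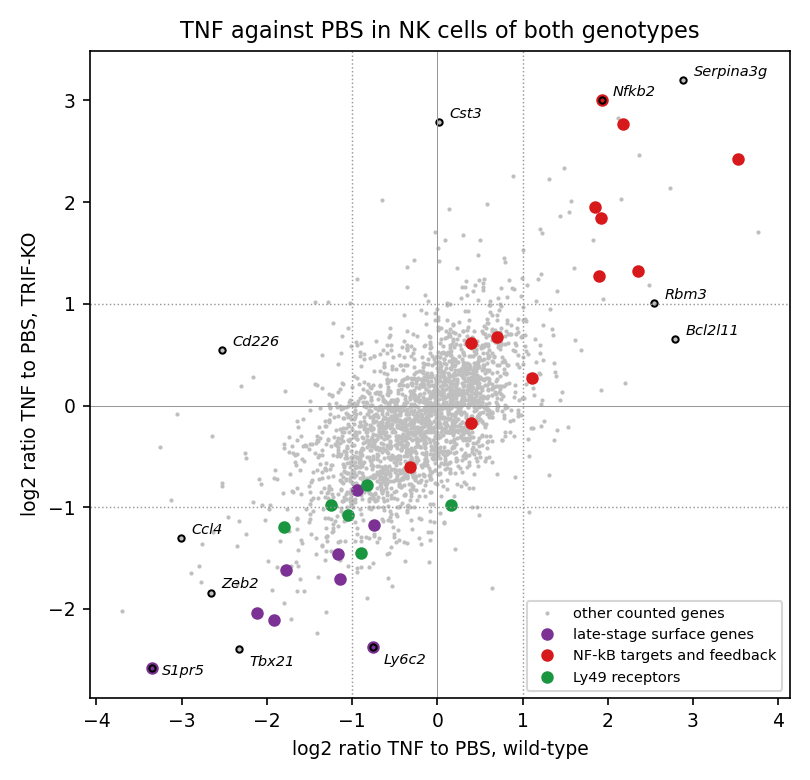
Log2 ratio of TNF to PBS in NK cells of wild-type libraries (horizontal axis) and TRIF-KO libraries (vertical axis), 1 point per counted gene, with genes named in the text marked. Serpina3g is high and S1pr5 low on both axes, whereas Bcl2l11 is far higher on the wild-type axis, at 2.79 against 0.65.

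The late-stage genes stood far below the PBS level after TNF. Of 12 genes on the late-stage list 9 were counted, of which 6 were at least 2-fold lower in wild-type and 8 in TRIF-KO NK cells and none was higher, with median log2 ratios of -1.17 and -1.71. The stricter gate gave 8 lower in either genotype. S1pr5, the receptor through which late-stage NK cells leave tissues, measured 196, 19.2, 211 and 35.2 CPM. Its log2 ratio was -3.35 in wild-type (-5.01 to -2.07) and -2.58 in TRIF-KO cells (-3.38 to -1.86). Both PBS libraries were high and both TNF libraries low, with no overlap of the counting intervals of injection groups.

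Itgam, which encodes CD11b, the alpha chain of CR3, was at 174, 46.1, 231 and 53.7 CPM, or log2 ratios of -1.92 and -2.11. Cma1, a chymase-type protease, was at 233, 53.8, 282 and 68.5 CPM, with log2 ratios of -2.11 (-3.04 to -1.30) and -2.04 (-2.61 to -1.50). Klrg1, an inhibitory receptor that marks the last stage, was at 105, 30.7, 204 and 66.7 CPM. Its level was higher in the TRIF-KO than in the wild-type library under either injection, while the TNF to PBS ratios were close, at -1.78 and -1.62. Spn, the sialophorin CD43, was lower too, with 390, 177, 527 and 161 CPM and log2 ratios of -1.14 and -1.71. In T cells the Spn ratios were -1.75 and -0.78. Over the 3 late-stage genes with at least 10 CPM in T and B cells, the wild-type medians were -0.95 in NK and -1.03 in T cells. In TRIF-KO libraries they were -1.46 and -0.60.

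Ly6c2, a surface protein of late-stage cells, differed between genotypes. It measured 370, 219, 722 and 139 CPM, so that the highest and the lowest value were both in TRIF-KO libraries. The log2 ratio was -0.76 in wild-type (-1.22 to -0.31) and -2.38 in TRIF-KO cells (-2.76 to -2.01), a difference of -1.62 (-2.19 to -1.05). Cd27, the marker of the earlier stage, was not higher in their place, at 78.5, 38.4, 111 and 59.3 CPM.

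Tbx21 and Zeb2, the transcription factors of the late stage, were lower after TNF in both genotypes. Tbx21, which encodes T-bet, was at 174, 34.6, 224 and 42.6 CPM, with log2 ratios of -2.33 (-3.52 to -1.33) and -2.40 (-3.12 to -1.73). Zeb2, a zinc-finger repressor that acts with T-bet, was at 630, 99.9, 675 and 189 CPM, with ratios of -2.66 (-3.30 to -2.07) and -1.84 (-2.18 to -1.51). The Zeb2 ratio was less negative in TRIF-KO cells by 0.80 (0.14 to 1.46). Eomes, the T-box factor paired with T-bet, differed less, at 314, 234, 367 and 211 CPM, and its wild-type log2 ratio of -0.42 had an interval from -0.89 to 0.03.

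Of 29 listed NK transcription factors 18 were counted, with 5 lower and 1 higher in wild-type and 2 lower and 1 higher in TRIF-KO cells, medians -0.40 and -0.49. With the stricter gate 4 were lower in wild-type cells and none was higher in TRIF-KO cells. The higher factor was Irf8, an interferon regulatory factor, at 353, 1360, 289 and 598 CPM. Its log2 ratio was 1.95 in wild-type (1.66 to 2.24) and 1.05 in TRIF-KO cells (0.75 to 1.36), and with the stricter gate the latter was just under 2-fold, at 0.997. Id2, which NK cells need throughout, was nearly level at 1344, 1498, 1455 and 1428 CPM. Maf was at 120, 19.2, 84.4 and 68.5 CPM, so that only the wild-type TNF library was low, with log2 ratios of -2.65 and -0.30 and a difference between them of 2.22 (0.79 to 3.65).

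The same differences appeared in the share of cells with a UMI once every cell was thinned to 2000 UMIs, which kept 63, 53, 116 and 71 cells. Zeb2 was then found in 63.5, 15.1, 67.2 and 28.2% of NK cells, against 16.5, 11.5, 13.8 and 14.1% of B cells. B cells held Zeb2 at 105, 71.7, 87.5 and 90.4 CPM and T cells at 4.31, 2.10, 3.06 and 2.37 CPM, so the B cell share is not a background level. Tbx21 was found in 38.1, 9.43, 41.4 and 5.63%, and S1pr5 in 31.7, 5.66, 28.4 and 4.23%, both with under 1% in B cells. The Zeb2 share of NK cells in the wild-type TNF library was close to that of B cells, while its level of 99.9 CPM lay above that of T cells. Without thinning, at the median depths above, the shares were 90.6, 32.1, 83.9 and 60.6% for Zeb2, 59.4, 14.3, 52.5 and 25.4% for Tbx21, and 67.2, 8.93, 49.2 and 21.1% for S1pr5. In the thinned cells, those with Itgam but not Cd27 numbered 20, 5, 38 and 11, and those with Cd27 but not Itgam 7, 6, 13 and 8. Fewer late-stage cells and less of these RNAs per cell cannot be told apart from sums or from shares of cells with a UMI.

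**Figure D3:**
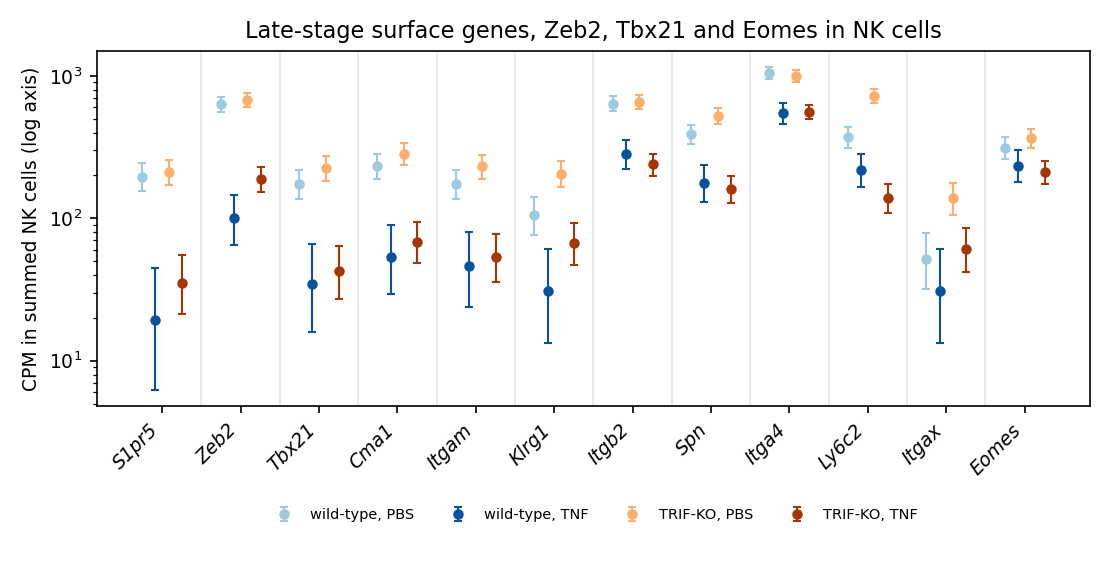
CPM in summed NK cells (vertical axis, log scale) of late-stage genes and maturation factors in the 4 libraries, with 95% intervals that cover counting error only. For S1pr5, Zeb2 and Tbx21 both TNF libraries lie below both PBS libraries, for S1pr5 at 19.2 and 35.2 against 196 and 211 CPM.

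Ly49 receptors (the Klra family) bind class I MHC, and single NK cells express varied subsets of them. Of 10 listed Ly49 genes 6 were counted, of which 3 were at least 2-fold lower in either genotype and none higher, with medians of -0.97 and -1.03; with the stricter gate these were 2 and 1 lower, with medians of -0.92 and -0.90. Klra9 was at 547, 157, 693 and 304 CPM, Klra8 at 1076, 580, 1322 and 483, and Klra4 at 983, 557, 1206 and 704. Each of these was lower in both TNF libraries, with log2 ratios from -1.80 to -0.78. The Ly49 genes are near-identical copies, and counting could split their reads, so that single members are uncertain. In thinned cells, 49.2, 37.7, 65.5 and 36.6% held 3 or more Ly49 genes.

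The other killer-cell lectin-like receptors differed less. Of 11 genes 9 were counted, with 2 lower in wild-type and 1 in TRIF-KO cells and none higher, medians -0.39 and -0.43. Klrc1, the inhibitory NKG2A chain, was at 302, 138, 289 and 163 CPM, and its partner Klrd1 at 1206, 634, 1462 and 832 CPM. Klrk1, the activating receptor NKG2D, was nearer to level at 1724, 1417, 1580 and 1296 CPM. Thus both chains of the CD94/NKG2A pair were lower after TNF, with log2 ratios of -0.93 and -0.81 for Klrd1.

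Among other activating and inhibitory receptors and their adaptors, 12 of 20 were counted, with 4 lower and 1 higher in wild-type and 3 lower and 1 higher in TRIF-KO cells; the stricter gate left 3 and 1 lower. Tyrobp (DAP12), the adaptor of activating receptors, was at 2611, 1901, 3142 and 1348 CPM, or log2 ratios of -0.46 and -1.22. Fcer1g, the adaptor of CD16, was at 2209, 1729, 2582 and 1250 CPM, or -0.35 and -1.05. Cd7 was at 500, 127, 316 and 156 CPM, or -1.98 and -1.02; under the stricter gate the TRIF-KO ratios of Cd7 and Fcer1g were under 2-fold. Both adaptors were lowest in the TRIF-KO TNF library, where haemoglobin took the largest share of UMIs.

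Cd226, the activating receptor DNAM-1, was low in 1 library only. It measured 110, 19.2, 53.3 and 77.8 CPM, with a log2 ratio of -2.52 in wild-type (-4.21 to -1.19) and 0.54 in TRIF-KO cells (-0.21 to 1.33). The difference of the ratios was 2.93 (1.47 to 4.40). Sh2d2a, an adaptor of T and NK cell signalling, was the higher gene, at 208, 553, 142 and 311 CPM, or log2 ratios of 1.41 (1.01 to 1.81) and 1.13 (0.71 to 1.57).

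Cytotoxic granule genes did not share a direction. Of 24 genes 15 were counted, with 3 higher and 2 lower in wild-type (median 0.26) and 1 higher and 2 lower in TRIF-KO cells (median -0.44). Gzmb, granzyme B, was at 402, 1037, 504 and 674 CPM, with log2 ratios of 1.37 (1.08 to 1.66) and 0.42 (0.18 to 0.66). Gzma was lower instead, at 9501, 7698, 10480 and 6136 CPM, and Prf1 was at 875, 1087, 844 and 604 CPM. So perforin was higher after TNF in wild-type and lower in TRIF-KO cells, by 0.31 and -0.48 on the log2 scale.

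Of the counted protease inhibitors of the list, only Serpina3g was at least 2-fold higher in both genotypes, and Serpinb9 was so in wild-type cells alone. Serpina3g, a serpin of lymphocytes, was at 181, 1341, 104 and 959 CPM, with log2 ratios of 2.89 (2.52 to 3.27) and 3.20 (2.77 to 3.66), and T cells held 3.55, 27.2, 4.65 and 16.9 CPM. In thinned NK cells it was found in 23.8, 79.2, 18.1 and 71.8%, against 4.90 to 9.36% of B cells, and without thinning in 45.3, 87.5, 25.4 and 98.6%. Its neighbour Serpina3f, a near-identical copy that could share reads with it, gave 5, 46, 0 and 121 UMIs. Serpinb9, which inhibits granzyme B and shields the killer cell, was at 387, 883, 289 and 361 CPM, or log2 ratios of 1.19 and 0.32. Ctsd, the lysosomal protease cathepsin D, was lower at 664, 269, 911 and 339 CPM, with log2 ratios of -1.31 and -1.43.

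Of the cytokines and chemokines that NK cells secrete, 6 of 18 genes were counted, with 3 lower and none higher in wild-type and 2 lower and 1 higher in TRIF-KO cells, medians -0.56 and -0.71. Ccl4 was at 647, 80.7, 307 and 124 CPM, with log2 ratios of -3.0 (-3.72 to -2.36) and -1.31 (-1.75 to -0.87). A single cell held 105 of its 264 UMIs in the wild-type PBS library and 49 of 138 in the TRIF-KO PBS library, and without the cell with most UMIs the TRIF-KO ratio was -0.91. Ccl3, its partner, was at 201, 23, 162 and 85.2 CPM, and the wild-type TNF library was the lowest. Both chemokines attract monocytes and T cells.

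Ifng, interferon gamma, was at 90.7, 42.3, 109 and 33.3 CPM, with log2 ratios of -1.10 (-2.22 to -0.10) and -1.71 (-2.57 to -0.90). Ccl5 was nearly level in wild-type cells, at 10646, 10586, 15537 and 11101 CPM. Xcl1, which draws cross-presenting dendritic cells, was at 601, 657, 180 and 259 CPM, so that both TRIF-KO libraries lay below both wild-type libraries. A single cell held 84 of its 245 UMIs in the wild-type PBS library. The share of thinned cells with Xcl1 was 30.2, 43.4, 17.2 and 29.6%, with under 1% in B cells. Both TRIF-KO libraries were lower here too. However, TRIF-KO after TNF (interval 19.3 to 41.6) was close to wild-type after PBS (19.2 to 43.0). Without thinning the shares were 45.3, 42.9, 28.8 and 46.5%, and this order was lost. Cxcl10, a chemokine of the interferon response, had no UMI after PBS in either genotype. After TNF it had 54 UMIs in 11 wild-type cells and 10 UMIs in 4 TRIF-KO cells, which is at least 28.2-fold higher in wild-type and at least 2.78-fold higher in TRIF-KO cells against a floor of 3 UMIs in the PBS library.

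Genes of trafficking and adhesion were more often lower. Of 24 genes 17 were counted, with 6 lower in either genotype and 2 higher in wild-type and 1 in TRIF-KO cells, medians -0.80 and -0.87. Under the stricter gate 4 were lower in TRIF-KO cells. Over the 12 of these genes with at least 10 CPM in T and B cells, T cells of wild-type libraries had a median of -1.06, beside -0.34 in NK cells. At least 2-fold lower were 7 in T and 4 in NK cells. In TRIF-KO libraries the medians were -0.54 in T and -0.90 in NK cells, with 1 and 4 lower. Itgb7, the integrin beta 7 chain, was at 191, 61.5, 193 and 64.8 CPM. Itgb2, the beta chain of LFA-1 and CR3, was at 637, 284, 655 and 239 CPM. Their log2 ratios were -1.64 and -1.58 for Itgb7 and -1.17 and -1.46 for Itgb2, so the genotypes were close. Cd69, an activation marker that holds lymphocytes in tissue by removing S1pr1 from the surface, was higher, at 44.1, 192, 13.3 and 94.5 CPM, or log2 ratios of 2.12 (1.32 to 2.99) and 2.82 (1.60 to 4.34). Cxcr4, the receptor for Cxcl12, was higher in wild-type cells alone, at 41.7, 157, 73.3 and 81.5 CPM, with a difference between the ratios of -1.75 (-2.78 to -0.71).

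Early-stage genes were counted for 9 of 12 members, with 1 higher and 2 lower in wild-type (median 0.13) and 4 higher and 1 lower in TRIF-KO cells (median 0.53). With the stricter gate 2 were higher and 1 lower in wild-type and 4 higher and none lower in TRIF-KO cells. Emb, embigin, was higher in both, at 147, 338, 86.7 and 289 CPM, with log2 ratios of 1.20 and 1.74. Ltb, lymphotoxin beta, was at 262, 257, 80.0 and 261 CPM and stood apart only in the TRIF-KO PBS library. Il7r rested on few cells: at 118, 177, 42.2 and 167 CPM its log2 ratio was 1.98 in TRIF-KO cells, and the stricter gate gave 3.26 in wild-type and 2.23 in TRIF-KO cells. Innate lymphoid cells outside the NK lineage also express Il7r, and markers of type 1 innate lymphoid cells summed to 133, 103, 29 and 138 UMIs; their part in these ratios was not tested.

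Cytokine receptor genes were mostly within 2-fold, with 1 of 11 counted genes lower and none higher in wild-type and 1 lower and 1 higher in TRIF-KO cells. With the stricter gate 2 were higher in wild-type and none was lower in TRIF-KO cells. The lower gene was Il18r1, a chain of the IL-18 receptor that primes interferon gamma, at 282, 119, 304 and 141 CPM, or log2 ratios of -1.24 and -1.11; the stricter gate gave -0.86 in TRIF-KO cells. Ifngr1 was higher, at 610, 1206, 469 and 748 CPM, with log2 ratios of 0.98 and 0.67. Il2rb, through which IL-15 sustains NK cells, was at 780, 1125, 835 and 750 CPM.

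The NF-kB genes formed the list with most members higher after TNF. Of 31 genes 12 were counted, of which 8 were at least 2-fold higher in wild-type and 7 in TRIF-KO cells and none was lower, with medians of 1.88 and 1.30. Nfkb2, Tnfaip3, Relb, Birc3 and Bcl2a1b reached 50 CPM only in TNF libraries, so they were counted through the injection in which they were high. These values can be read beside the promoters of the negative regulators Nfkbia and Tnfaip3, of the subunit gene Nfkb2 and of Serpina3g, whose RNAs were higher after TNF in both genotypes. They were chosen because their promoters hold a match to the NF-kB motif. Birc3, Traf1, Relb and Bcl2a1b were also higher in both genotypes. The counted genes Relb and Nfkb1 had no promoter entry and were not searched. Of the counted genes with an entry, none other than Nfkbia, Nfkb2 and Tnfaip3 had a match. Each sequence is the stretch of 250 bases before a RefSeq start in GRCm38.p6, read 5′ to 3′ on the strand of the gene. Capitals mark matches on either strand to the consensus named kappa B (NF-kB), and matches may overlap within a block. The positions are chr12:55492648-55492897 on the minus strand for Nfkbia, chr19:46304487-46304736 on the plus strand for Nfkb2, chr10:19015411-19015660 on the minus strand for Tnfaip3 and chr12:104235897-104236146 on the plus strand for Serpina3g.
Nfkbia: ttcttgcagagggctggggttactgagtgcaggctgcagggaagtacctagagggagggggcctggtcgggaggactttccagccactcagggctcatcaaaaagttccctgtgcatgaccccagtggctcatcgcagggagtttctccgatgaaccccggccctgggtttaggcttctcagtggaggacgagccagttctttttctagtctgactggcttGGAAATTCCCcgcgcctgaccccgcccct
Nfkb2: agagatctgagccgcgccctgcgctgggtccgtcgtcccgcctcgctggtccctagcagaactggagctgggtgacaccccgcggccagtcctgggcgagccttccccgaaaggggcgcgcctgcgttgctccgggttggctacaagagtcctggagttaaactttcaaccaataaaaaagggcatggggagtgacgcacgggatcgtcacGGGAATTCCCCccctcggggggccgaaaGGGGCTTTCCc
Tnfaip3: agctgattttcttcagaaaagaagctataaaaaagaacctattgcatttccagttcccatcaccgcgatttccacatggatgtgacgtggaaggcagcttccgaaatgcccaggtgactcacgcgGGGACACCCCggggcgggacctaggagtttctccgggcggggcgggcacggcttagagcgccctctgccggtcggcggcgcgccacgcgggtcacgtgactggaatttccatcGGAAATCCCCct
Serpina3g: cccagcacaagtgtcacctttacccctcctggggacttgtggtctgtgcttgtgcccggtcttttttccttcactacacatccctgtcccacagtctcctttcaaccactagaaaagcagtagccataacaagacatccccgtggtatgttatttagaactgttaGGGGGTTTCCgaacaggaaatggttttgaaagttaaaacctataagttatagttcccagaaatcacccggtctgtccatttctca

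The Nfkbia match lies 29 bases before the start, those of Nfkb2 11 to 39 bases, those of Tnfaip3 12 to 125 bases and that of Serpina3g 85 bases. Tnfaip3 has 2 RefSeq entries, of which the one shown holds a match and the other does not. Across RefSeq promoters of this length, 7.25% of entries (2382 of 32851) and 8.23% of genes (2225 of 27025) hold a match. Of the 12 counted NF-kB genes 10 had an entry and 3 held a match, and of the 8 that were higher in wild-type cells 7 had an entry and 3 held one. A match is a description of the letters and not a site of binding.

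Nfkbia, which encodes the inhibitor IkB alpha, was at 262, 949, 82.2 and 319 CPM. Its log2 ratio was 1.85 in wild-type (1.52 to 2.20) and 1.95 in TRIF-KO cells (1.43 to 2.51). The ratios were alike although the levels were not: either TRIF-KO library lay below the wild-type library of the same injection, and the level after TNF in TRIF-KO cells was near that after PBS in wild-type cells. In thinned cells Nfkbia was found in 27.0, 79.2, 16.4 and 42.3% of NK cells and in 38.6, 37.1, 39.0 and 40.3% of B cells, and without thinning in 54.7, 89.3, 23.7 and 76.1% of NK cells.

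Tnfaip3, the ubiquitin-editing enzyme A20 that ends the signal, was at 46.6, 211, 11.1 and 75.9 CPM, with log2 ratios of 2.18 (1.41 to 3.02) and 2.77 (1.43 to 4.47). Nfkb2, the p100 precursor, was at 44.1, 169, 11.1 and 88.9 CPM, with log2 ratios of 1.94 (1.12 to 2.82) and 3.0 (1.68 to 4.69). Relb, the partner of the processed Nfkb2 product, was at 46.6, 177, 28.9 and 104 CPM. Nfkbia, Tnfaip3, Nfkb2 and Relb thus shared the order of libraries, with wild-type TNF highest and TRIF-KO PBS lowest. The subunit gene Nfkb1 was counted too and was not at least 2-fold higher in wild-type cells.

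Of the survival and signalling targets, Birc3, an inhibitor of apoptosis, was at 36.8, 188, 35.5 and 88.9 CPM, or log2 ratios of 2.36 and 1.32. Traf1, an adaptor of TNF receptors, was at 140, 522, 95.5 and 231 CPM, or 1.90 and 1.28. Icam1, an adhesion ligand, was at 103, 223, 64.4 and 77.8 CPM, or 1.11 and 0.27. Bcl2a1b, a BCL2-family survival gene with near-identical copies whose reads could be split, was at 19.6, 227, 35.5 and 191 CPM. A single cell held 25 of its 59 UMIs in the wild-type TNF library and 47 of 103 in the TRIF-KO TNF library, and its log2 ratios of 3.53 and 2.42 were 2.18 and 1.63 with the stricter gate.

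**Figure D4:**
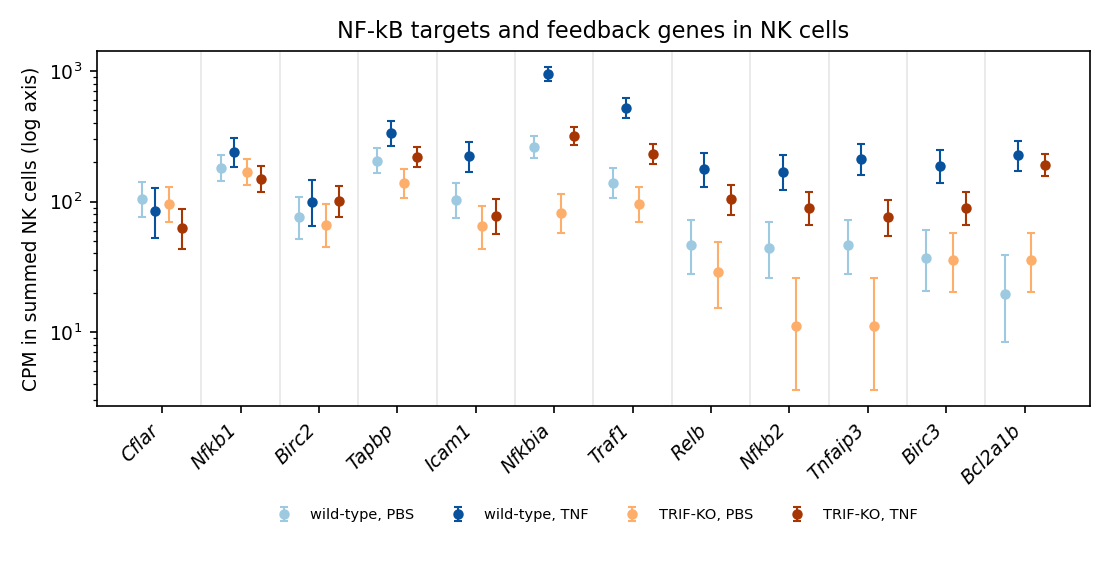
CPM in summed NK cells (vertical axis, log scale) of NF-kB target genes in the 4 libraries, with 95% intervals that cover counting error only. For Nfkbia, Tnfaip3, Nfkb2 and Relb the TNF library lies above the PBS library of its genotype, and the TRIF-KO TNF library below the wild-type TNF library, for Nfkbia at 319 against 949 CPM.

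T and B cells of the same libraries were compared over the same genes. These genes were kept by their level in NK cells, and some reached 50 CPM there only after TNF. The choice of genes can therefore favour a higher ratio in NK than in T or B cells, by an amount that was not tested. The NF-kB list had a median log2 ratio of 1.88 in NK, 0.98 in T and -0.09 in B cells of wild-type libraries and of 1.30, 0.86 and -0.12 in TRIF-KO libraries. For Nfkbia the ratios in T cells were 1.65 and 1.08 and those in B cells -0.08 and 0.00. At least 2-fold higher in T cells were 6 of the 12 genes in wild-type and 5 in TRIF-KO libraries, beside 8 and 7 in NK cells. The interval of NK minus T lay above 0 for 3 genes and below 0 for 0 genes in wild-type libraries. In TRIF-KO libraries these were 4 and 1. Traf1 was above 0 in both, with T cell ratios of 0.16 and 0.04. Its difference of NK minus T was 1.74 (1.26 to 2.22) in wild-type and 1.22 (0.71 to 1.74) in TRIF-KO libraries. With 1 library per group, these differences describe the libraries and were not tested.

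Members of the TNF receptor superfamily were counted for 3 of 15 genes, with 2 higher and 1 lower in wild-type and 1 higher in TRIF-KO cells. With the stricter gate 1 was higher and none lower in wild-type cells. Tnfrsf9 (4-1BB), an inducible costimulatory receptor, was at 44.1, 292, 48.9 and 215 CPM, with log2 ratios of 2.73 (1.97 to 3.56) and 2.14 (1.47 to 2.86). Tnfrsf18 (GITR) was at 88.3, 177, 86.7 and 115 CPM. The receptors for TNF itself were low, at 36.8, 26.9, 48.9 and 20.4 CPM for Tnfrsf1a (TNF-R1) and 41.7, 49.9, 66.7 and 31.5 CPM for Tnfrsf1b (TNF-R2), and with under 100 UMIs each they were not counted. On the list of the TLR4 and TRIF pathway, only Casp8 and Irak1 of 20 genes were counted, and neither differed by 2-fold. Casp8 was at 113, 146, 147 and 83.3 CPM and Irak1 at 61.3, 57.6, 51.1 and 77.8 CPM. So NK cells gave few UMIs of the pathway that the genotype targets.

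Genes of JAK-STAT signalling leaned higher after TNF, with 3 of 9 counted genes higher in wild-type and 2 in TRIF-KO cells and none lower, medians 0.53 and 0.20. Socs1, a feedback inhibitor of cytokine signalling, was at 83.4, 234, 35.5 and 180 CPM, with log2 ratios of 1.49 (0.86 to 2.14) and 2.34 (1.57 to 3.20). Pim1, a kinase induced by cytokines, was higher in wild-type cells, at 382, 826, 324 and 396 CPM, or 1.11 and 0.29.

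Of 35 genes induced by interferon gamma 21 were counted, with 4 higher and none lower in either genotype, medians 0.44 and 0.41. Igtp, an immunity-related GTPase, was at 24.5, 127, 17.8 and 98.2 CPM, and Gbp4, a guanylate-binding protein, at 80.9, 188, 80.0 and 196 CPM. Irf1 was at 203, 392, 151 and 250 CPM, with log2 ratios of 0.95 and 0.73. Of 50 type I interferon-stimulated genes 14 were counted, with 2 higher and 2 lower in wild-type and 2 higher and 1 lower in TRIF-KO cells. With the stricter gate 1 was lower in wild-type cells. Their medians were -0.01, which turned positive under the other scalings (0.12 and 0.20), and 0.32. Slfn2 was at 189, 484, 213 and 344 CPM and Ly6e at 623, 880, 318 and 983 CPM.

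Death and survival genes had 2 of 9 counted members higher and none lower in either genotype. Bcl2l11, which encodes the death-promoting protein BIM, was at 71.1, 492, 113 and 178 CPM, so that the wild-type TNF library stood alone. The log2 ratio was 2.79 in wild-type (2.20 to 3.42) and 0.65 in TRIF-KO cells (0.15 to 1.17), a difference of -2.13 (-2.88 to -1.37), and in T cells it was 1.08 and 1.20. Bcl2, the opposing survival gene, was at 539, 780, 296 and 683 CPM, with log2 ratios of 0.53 and 1.21. The wild-type TNF library was also the one with the largest share of barcodes over the mitochondrial limit, at 22.4%; its part in the Bcl2l11 level was not tested.

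Rbm3, which is induced by cold, was higher after TNF in NK, T and B cells alike. This RNA-binding protein was at 145, 841, 316 and 633 CPM in NK cells, with log2 ratios of 2.54 (2.12 to 2.98) and 1.01 (0.72 to 1.30), the latter 0.92 with the stricter gate. T cells gave 2.02 and 0.80 and B cells 2.25 and 0.92. Cirbp, the other gene of that list, was at 63.7, 184, 113 and 98.2 CPM, or log2 ratios of 1.53 and -0.21. Heat-shock and chaperone genes had a median of -0.68 in wild-type NK cells, beside -0.58 in T and -0.63 in B cells, and of 0.02, -0.07 and -0.13 in TRIF-KO libraries. Hspa8 was at 1135, 626, 887 and 819 CPM and Dnaja1 at 532, 215, 373 and 252 CPM.

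Immediate-early genes were counted for 12 of 25 members, with 2 higher and 1 lower in wild-type and 1 of each in TRIF-KO cells, medians 0.65 and -0.26. Junb, an AP-1 subunit, was at 304, 634, 296 and 235 CPM, with a difference between the ratios of -1.39 (-1.87 to -0.90). Zfp36, which degrades cytokine RNAs, was at 51.5, 80.7, 116 and 33.3 CPM, or log2 ratios of 0.65 and -1.79. In T cells the list had medians of 0.53 and 0.10, and in B cells of 0.42 and 0.05. Of the 5 counted glucocorticoid-induced genes, 1 was higher in wild-type and 2 in TRIF-KO cells. Fkbp5 was at 108, 84.5, 48.9 and 126 CPM in NK cells, or log2 ratios of -0.35 and 1.37, while B cells gave 2.51 and 3.13.

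Cell-cycle genes gave 4 of 8 counted members lower in wild-type and 3 in TRIF-KO cells and none higher, medians -0.98 and -0.77, and they rested on few cells. Stmn1 (stathmin) had 61, 3, 105 and 31 UMIs, of which 42, 2, 47 and 11 lay in 1 cell each. Of Hmgb2, a chromatin protein of dividing cells, the cell with most UMIs held 114, 7, 103 and 108. None of the 14 counted glycolysis genes was lower, and 2 were higher in TRIF-KO cells, medians 0.40 and 0.37. Npm1, a nucleolar protein of ribosome assembly, was at 471, 811, 438 and 1198 CPM, with log2 ratios of 0.78 and 1.45.

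**Figure D5:**
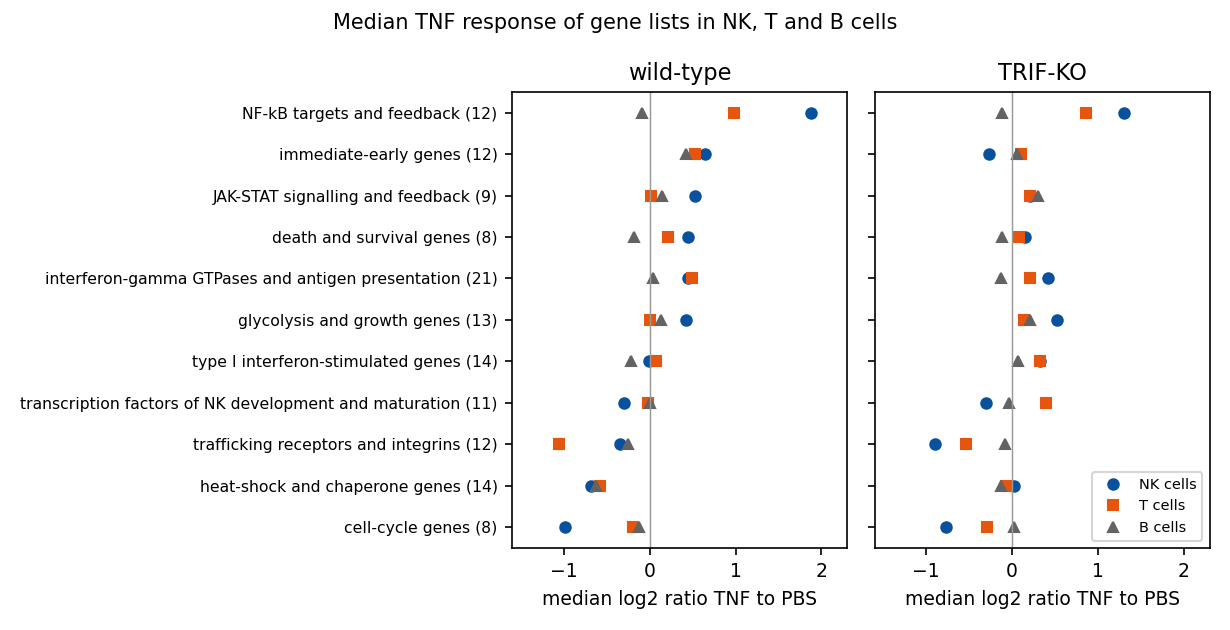
Median log2 ratio of TNF to PBS (horizontal axis) of each gene list (vertical axis) in NK, T and B cells, over the list members with at least 10 CPM in T and B cells, for wild-type and TRIF-KO libraries. Members were first kept by their level in NK cells, which can favour higher ratios there. The NF-kB list is at 1.88 in NK, 0.98 in T and -0.09 in B cells of wild-type libraries, whereas the heat-shock list lies between -0.68 and -0.58 in all of them.

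Outside the lists, the genes named by their rank in wild-type cells included several that differed in the same direction in TRIF-KO cells. Sdhaf1, an assembly factor of respiratory complex II, was at 14.7, 200, 26.7 and 87.0 CPM, or log2 ratios of 3.76 (2.54 to 5.27) and 1.71 (0.77 to 2.76). Rgs1, a regulator of G-protein signalling that dampens chemokine receptors, was at 90.7, 403, 60.0 and 244 CPM, with ratios of 2.15 and 2.03. Among the lower genes, Arl4c was at 284, 38.4, 284 and 90.7 CPM and Tm6sf1 at 395, 57.6, 364 and 109 CPM. Mxd4, a repressor of the MYC network, was at 294, 42.3, 276 and 92.6 CPM. For all of these lower genes the wild-type TNF library was lowest, with log2 ratios from -2.89 to -2.78, against -1.74 to -1.57 in TRIF-KO cells.

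Emp3 was lower in both, more so in TRIF-KO cells, at 566, 319, 891 and 241 CPM, or log2 ratios of -0.83 and -1.89. Tmem71 was at 110, 11.5, 120 and 90.7 CPM, low in wild-type TNF cells alone, with a difference between the ratios of 2.65 (0.99 to 4.32). Its level in that library rested on 3 UMIs. Cst3 (cystatin C), at 186, 188, 153 and 1057 CPM, rested on 1 cell that held 514 of 571 UMIs in the TRIF-KO TNF library. Cystatin C is abundant in dendritic cells and macrophages. Without the top cell of each library its TRIF-KO log2 ratio was -0.45.

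The genotypes were compared directly at each injection; these comparisons use the libraries already described and are not independent of them. After PBS, 14 counted genes were at least 2-fold higher (0.541%) and 30 lower (1.16%) in TRIF-KO than in wild-type NK cells. The median log2 ratio was -0.03. With the stricter gate 19 of 2435 counted genes were lower. NF-kB genes were among the lower ones, with 3 of 12 lower, none higher and a median of -0.56: Nfkbia had a log2 ratio of -1.67 and Tnfaip3 of -2.07. Of the 6 counted secreted factors 3 were lower, with a median of -0.69. Xcl1 and Ltb had ratios of -1.74 and -1.71, and with the stricter gate Ltb was at -0.91. The Il7r ratio of -1.48 turned to 1.44 with the stricter gate, so its direction rested on few cells.

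On the higher side after PBS, Itgax, which encodes CD11c, had a log2 ratio of 1.42 (0.69 to 2.21). Its levels were 51.5, 30.7, 138 and 61.1 CPM. Arl4d, a small GTPase, was at 78.5, 11.5, 167 and 64.8 CPM and was higher in TRIF-KO cells after either injection, by 1.09 and 2.49 on the log2 scale. The ratio after TNF (0.83 to 4.84) rested on 3 UMIs in the wild-type library. Odc1, the first enzyme of polyamine synthesis, was lower after PBS, at 98.1, 108, 31.1 and 119 CPM, with a ratio of -1.66 that was -0.32 with the stricter gate.

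After TNF, 66 counted genes were at least 2-fold higher (2.55%) and 40 lower (1.54%) in TRIF-KO than in wild-type NK cells, with a median log2 ratio of 0.01. Of the 12 NF-kB genes 5 were lower and none higher, with a median of -0.85, beside the lower levels already present after PBS. Nfkbia had a log2 ratio of -1.57 (-1.86 to -1.29) and Icam1 of -1.52 (-2.13 to -0.92). Bcl2l11 had -1.47 (-1.86 to -1.07), Serpinb9 -1.29 (-1.57 to -1.01) and Irf8 lay at 598 against 1360 CPM. Of 12 immediate-early genes 4 were lower, with a median of -0.81.

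Genes higher in TRIF-KO than in wild-type cells after TNF included several whose lowest level was in the wild-type TNF library. Ccl3 had a log2 ratio of 1.89 (0.66 to 3.4) after TNF and -0.31 (-0.79 to 0.16) after PBS. Cd226 and Maf were at 77.8 against 19.2 CPM and 68.5 against 19.2 CPM. Sipa1, an inhibitor of the GTPase Rap1, was at 154, 26.9, 191 and 113 CPM. That library also held the fewest NK UMIs, at 260332. With UMIs thinned to that total, the ratios of Ccl3, Cd226, Maf and Sipa1 were still at least 2-fold. Thinning leaves the counts of the wild-type TNF library as they are. It therefore does not check the few UMIs behind these ratios, such as 6 for Ccl3 in that library. The count of genes higher in TRIF-KO cells was 30 of 1599 counted, in place of 66 of 2589.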

How the data were processed

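The 4 spleen libraries are 1 sample per group, grouped by the genotype and treatment labels. The deposited matrices hold raw UMI counts for 32285 features. The submitters' processing notes name the build mm10, Seurat 4.1.1 and Cell Ranger 3.0; the matrix headers give Cell Ranger 6.0.1. No source used here gives the annotation release. A UMI count collapses PCR copies, so each counts 1 captured molecule. The deposited barcodes numbered 2683, 6855, 6508 and 8060, of which 2502, 5254, 5659 and 7061 held 200 genes or more, with a mitochondrial share of 10% or less, and were kept. Doublets were not removed, and removal of the highest Scrublet scores was an alternative.

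NK, T (Cd3d and Cd3g) and B cells (Cd79a and Ms4a1, both at least 2 UMIs) were gated on raw UMIs, and CPM were taken from the UMI sums of each class in each library. Ratios of sums carry exact conditional 95% intervals, shares exact Clopper-Pearson intervals and differences of log2 ratios normal intervals with 0.5 added to each count; all treat UMIs as independent, which understates the spread between cells and leaves out that between mice. A count of 0 was read against a floor of 3 counts per library (7.36, 11.5, 6.67 and 5.56 CPM). The script was tested on simulated data. Python 3.11.15, NumPy 2.4.6, SciPy 1.17.1, pandas 2.3.3, scanpy 1.11.5 and matplotlib 3.10.9 were used.

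The members and the 23 gene lists were chosen with earlier results of these data known. Genes named are, per comparison, the 10 highest and 10 lowest ratios ranked by the interval bound nearest to no difference (6 and 6 for the difference between responses), from which the text takes a part; up to 6 members of each list, those with most UMIs or the largest difference; and Ticam1, Tnfrsf1a and Tnfrsf1b. A few further list members are given as reference points and were chosen after their values were seen. Left out were the genes of the rule, predicted genes, sex-linked genes and those of mitochondria, ribosomes, haemoglobin and antigen receptors, as were genes under 5% of their CPM in another gate. Alternatives covered the gate, doublets, scaling, cell weighting, thinning, low counts and single cells.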

Additional observations from a re-analysis of the deposited data

Results flagged for a closer look

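For 4 counted genes the TNF to PBS ratio in NK cells was at least 2-fold in opposite directions in the 2 genotypes, which is why they are given here. With 1 library per group the difference was not tested. Med15 had log2 ratios of -1.02 in wild-type and 1.01 in TRIF-KO cells, a difference of 1.96. Ppt1 had -1.29 and 1.02, a difference of 2.24, and 1 cell held 38 of its 68 UMIs in the TRIF-KO TNF library; without the cell with most UMIs in each library the TRIF-KO ratio was 0.00034. Xpo7 had -1.44 and 1.02, a difference of 2.37, and 1 cell held 17 of its 51 UMIs there; without the top cells the TRIF-KO ratio was 0.65. Neither gene was then at least 2-fold higher in TRIF-KO cells. Rps27rt, a processed copy of a ribosomal protein gene that could share reads with its parent, had 1.07 and -1.04, a difference of -2.10.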

How the results depend on the processing

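The TNF to PBS ratio of the NK share stayed below 1 under all gates tried. Counts of genes at least 2-fold different moved by over 1.5 times as follows. They are to be read against the genes counted, which numbered 2589 in the main setting and with median-of-ratios scaling. These were 1222 with at least 200 UMIs, 13271 without a filter and 1599 after thinning. A gate sum of 1 UMI gave 3127 and the stricter gate 2435. Leaving out genes of mitochondria, ribosomes, haemoglobin and immunoglobulin gave 2495. With at least 200 UMIs asked for, TNF against PBS gave 39 higher and 129 lower genes in wild-type and 32 and 67 in TRIF-KO cells, and TRIF-KO against wild-type gave 4 and 9 after PBS and 17 and 15 after TNF. Without a filter on low values these were 2331 and 1759, 1716 and 2219, 1539 and 1840, and 1068 and 2926. Median-of-ratios scaling gave 138 higher and 201 lower genes in wild-type cells. Thinning to the smallest total gave 166 lower genes in wild-type cells, 42 higher ones in TRIF-KO cells and 30 higher ones for TRIF-KO against wild-type after TNF. A gate sum of 1 UMI gave 180 higher genes in TRIF-KO cells, 85 lower for TRIF-KO against wild-type after PBS, and 138 higher and 74 lower after TNF. Leaving genes of mitochondria, ribosomes, haemoglobin and immunoglobulin out of the total gave 109 lower genes in TRIF-KO cells, and the stricter gate 19 lower ones after PBS. Apart from the filters and thinning, which change the genes or UMIs counted, the cause was not tested. Directions turned for 3 genes. Cst3 in TRIF-KO cells became -0.32 with the stricter gate and -0.45 without its top cell, and for TRIF-KO against wild-type after TNF -0.093, -0.35 and -0.54 with a gate sum of 1 UMI, the stricter gate and without that cell. Il7r after PBS became 0.094 and 1.44 with a gate sum of 1 UMI and the stricter gate, and Ncoa7 after PBS 0.045 with the stricter gate. Of 189 log2 ratios of named genes that were at least 2-fold, 154 to 180 remained so under each alternative. No paired analysis was possible because each group is 1 library. The wild-type TNF library held the fewest NK UMIs, at 260332. For genes at least 2-fold higher after TNF in wild-type cells, the PBS library held the smaller count, which limits the precision of the ratio. Sdhaf1, for example, had 6 UMIs after PBS and 52 after TNF.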
